A study of Mus musculus with 12 samples.

Results

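Glucocorticoid receptor (GR) binding in BWTG3 cells, a mouse hepatoma line, was compared between 3 libraries treated with dexamethasone (DEX) and 3 libraries of the group NI. These are 6 of the 12 samples of the series, chosen by their labels. Binding was measured by chromatin immunoprecipitation with an antibody against GR followed by sequencing (ChIP-seq), and each library has its own list of called peaks. The DEX cells received 1 µM dexamethasone, a synthetic glucocorticoid. The NI cells were taken as untreated because their label names no agent. Cells of both groups came from the same starvation step of 24 h, and stimulation lasted 3 h in total. BWTG3 is a single tumour line, and the assay reads GR sites and not RNA, so its hepatocyte character was not checked here on expression. Merging peaks of the 6 lists that shared at least 1 bp gave 29623 regions. Some values below come from TNF and TNFDEX libraries outside this comparison. Their cells received 1000 U/ml TNF, and the TNFDEX cells also 1 µM dexamethasone, 1 h after the TNF.

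GR is a nuclear receptor that rests in the cytoplasm with chaperones until a glucocorticoid binds it, and then enters the nucleus. There it binds glucocorticoid response elements (GREs), pairs of inverted half-sites with a short spacer, mostly in enhancers, and it also reaches DNA through other factors. In hepatocytes it is known for driving gluconeogenesis and amino acid breakdown, and for dampening inflammatory genes.

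The 6 libraries were of similar depth, but they differed in mitochondrial tags and in how well replicates shared regions. The DEX libraries held 39228805 to 46425427 tags and the NI libraries 40391531 to 41384993. In replicates 3 of both groups, mitochondrial peaks took 0.401% of the tags in DEX and 0.436% in NI, whereas replicates 1 and 2 had at most 0.0113% in DEX and at most 0.0114% in NI. Of the regions of DEX replicate 1, 67.2% were called in DEX replicate 2, and of those of NI replicate 1, 34.2% were called in NI replicate 2. NI replicate 3 stood apart, since 11.8% of its regions were called in NI replicate 2 and 11.5% in NI replicate 1. Because DEX replicate 3 and NI replicate 3 share the mitochondrial feature, values for replicates 1 and 2 alone are given below beside the pooled ones for peak number and tag share. The part of this feature in the other results was not tested, apart from a limma fit with it as a term.

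Promoter windows show the kind of DNA under regions that differed between the groups, and a few are printed here. Each runs from 250 bases before to 50 bases after a gene's start, 300 in all, and comes from RefSeq on the assembly GRCm38.p6, whose coordinates are those of mm10. Capitals mark the GRE core ACANNNTGT, found on either strand. In the windows of Atp6v0a4, Slc10a6 and Mt1 at least 1 core lies inside the GR region. These were chosen as examples of it, and the Cavin2 window is the strongest gained one without a core, and the Ptp4a1 and H2aw windows belong to regions called in NI only. All are read 5′ to 3′ on the strand of the gene.
Atp6v0a4 (chr6:38124537-38124836, minus strand): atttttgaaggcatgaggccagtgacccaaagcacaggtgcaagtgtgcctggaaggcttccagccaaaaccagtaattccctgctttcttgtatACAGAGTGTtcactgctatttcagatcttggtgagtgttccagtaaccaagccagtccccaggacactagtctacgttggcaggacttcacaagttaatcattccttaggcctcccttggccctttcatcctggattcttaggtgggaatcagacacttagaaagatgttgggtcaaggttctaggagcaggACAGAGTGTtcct
Slc10a6 (chr5:103629354-103629653, minus strand): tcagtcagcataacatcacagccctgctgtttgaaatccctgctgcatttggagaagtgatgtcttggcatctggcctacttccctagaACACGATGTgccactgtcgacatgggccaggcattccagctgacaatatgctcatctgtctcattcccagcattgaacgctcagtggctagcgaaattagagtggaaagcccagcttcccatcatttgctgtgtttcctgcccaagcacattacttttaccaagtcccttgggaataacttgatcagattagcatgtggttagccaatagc
Mt1 (chr8:94178839-94179138, plus strand): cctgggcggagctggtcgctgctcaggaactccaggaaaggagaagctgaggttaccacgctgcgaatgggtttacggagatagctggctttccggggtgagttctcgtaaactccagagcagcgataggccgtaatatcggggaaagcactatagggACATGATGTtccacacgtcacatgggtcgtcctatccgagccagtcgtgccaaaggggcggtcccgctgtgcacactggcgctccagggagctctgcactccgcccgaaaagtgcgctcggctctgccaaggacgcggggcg
Cavin2 (chr1:51288876-51289175, plus strand): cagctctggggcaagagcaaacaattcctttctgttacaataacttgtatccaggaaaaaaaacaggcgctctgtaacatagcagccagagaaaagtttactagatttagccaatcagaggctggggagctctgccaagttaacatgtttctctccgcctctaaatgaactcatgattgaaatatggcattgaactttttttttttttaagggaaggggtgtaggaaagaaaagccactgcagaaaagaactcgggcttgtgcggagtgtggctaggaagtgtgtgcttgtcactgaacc
Ptp4a1 (chr1:30949706-30950005, minus strand): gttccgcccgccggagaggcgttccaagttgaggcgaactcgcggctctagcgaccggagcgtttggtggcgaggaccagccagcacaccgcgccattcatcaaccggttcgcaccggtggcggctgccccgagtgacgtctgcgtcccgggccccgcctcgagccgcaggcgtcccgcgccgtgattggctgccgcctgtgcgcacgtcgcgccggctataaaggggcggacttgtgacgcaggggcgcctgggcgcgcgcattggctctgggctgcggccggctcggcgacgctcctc
H2aw (chr11:58954435-58954734, plus strand): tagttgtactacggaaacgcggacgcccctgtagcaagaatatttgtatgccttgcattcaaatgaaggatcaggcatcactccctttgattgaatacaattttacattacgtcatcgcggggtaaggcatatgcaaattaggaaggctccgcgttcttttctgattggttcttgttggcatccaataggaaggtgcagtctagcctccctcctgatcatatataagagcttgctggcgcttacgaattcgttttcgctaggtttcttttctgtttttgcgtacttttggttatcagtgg

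With dexamethasone the lists held more GR peaks, and the peaks were stronger. Outside the mitochondrial genome the DEX libraries held 10479, 13020 and 12953 peaks in replicates 1, 2 and 3, against 5441, 6501 and 2522 peaks in the NI libraries. The groups did not overlap, and NI replicate 3 was the lowest of all. The ratio of the geometric means was 2.71-fold (log2 1.44, exact two-sided permutation p = 0.1, the smallest p that 3 against 3 libraries allow). Within replicates 1 and 2 the log2 difference was 0.97 (exact permutation p = 0.333, the smallest for 2 against 2), and without NI replicate 3 it was 1.02.

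The share of a library's tags lying in its own peaks separated the groups further than the number did. It was 1.09%, 1.58% and 1.87% in DEX replicates 1, 2 and 3, against 0.288%, 0.439% and 0.106% in NI replicates 1, 2 and 3. All 3 DEX libraries were above all 3 NI libraries, by 6.21-fold between geometric means (log2 2.64, exact permutation p = 0.1, the smallest possible). The log2 difference was 1.88 within replicates 1 and 2 and 2.05 without NI replicate 3.

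Strength is given here as the authors' normalized tag count, which is tags in a peak per 20000000 tags of the library. Its median over peaks was 12.4, 14.8 and 15.5 in DEX replicates 1, 2 and 3, and 7.9, 10.1 and 7.8 in the NI replicates, a log2 difference of 0.73 (exact permutation p = 0.1). The gap was wider among strong peaks. Peaks of 50 or more numbered 666, 1082 and 1589 in the DEX libraries and 33, 92 and 0 in the NI libraries. The highest peak of a library reached 643.5, 843.8 and 1176.1 in DEX, against 346.1, 193.3 and 49.9 in NI.

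**Figure D1:**
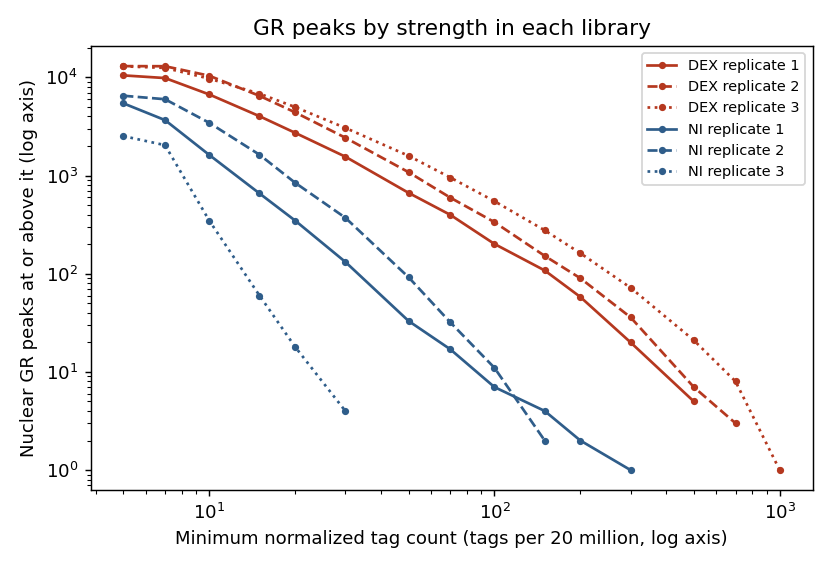
Number of nuclear GR peaks at or above a normalized tag count (tags per 20000000) in each library, both axes logarithmic, with DEX in red and NI in blue. At a minimum of 20 the DEX libraries hold 2726, 4405 and 4987 peaks and the NI libraries 348, 845 and 18.

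The 5 strongest peaks of each DEX library had 1 to 9 input tags and were 91.7-fold to 1368-fold above the input. Those of NI replicates 2 and 3 had 2 to 15 and 4 to 8 input tags, with folds of 14.9 to 77.3 and of 5.20 to 8.43, so their input tags were near the DEX range while their folds were lower. In NI replicate 1 the 5 strongest had 4 to 90 input tags and folds of 4.46 to 43.9. The strongest NI peak, inside Filip1l in NI replicate 1 with a normalized tag count of 346.1, had 90 input tags and was 4.46-fold above the input. It was called in no other library. The second of that library, 282.1 kb from Pex2, had 286.7 normalized tags, 56 input tags and a fold of 6.01. Over whole lists, the median fold over input was 10.4, 10.6 and 12.7 in the DEX libraries, against 9.18, 8.96 and 8.99 in the NI libraries.

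Peaks were also more focused in DEX, and the width set for a library's peaks was larger. The authors' peak width was 159, 171 and 173 bp in the DEX libraries against 139, 155 and 149 bp in the NI libraries (difference 20 bp, exact permutation p = 0.1, the smallest possible). All peaks of a library carry the same width, so it is not a measured width of single peaks. The median focus ratio, the fraction of a peak's tags that sit on the expected strand side of its centre, was 0.773, 0.766 and 0.787 in DEX and 0.75, 0.742 and 0.735 in NI. Its difference of 0.033 also had an exact permutation p of 0.1. Among the 2522 strongest peaks of each library, the size of the shortest list, the ratio was 0.836, 0.837 and 0.855 in DEX and 0.758, 0.767 and 0.735 in NI.

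The position of peaks relative to genes differed, with a smaller share of DEX peaks at gene ends. Peaks within 1 kb of either end of a protein-coding gene made up 10.5%, 14.3% and 5.95% of the lists in DEX replicates 1, 2 and 3, against 19.4%, 22.8% and 16.5% in the NI replicates. The groups did not overlap (difference -9.32 percentage points, exact permutation p = 0.1, the smallest possible). In number, however, these were 1099, 1867 and 771 peaks in DEX and 1057, 1480 and 417 in NI, which overlap. Peaks over 50 kb from any protein-coding gene numbered 2584, 3050 and 3626 in DEX, against 1253, 1424 and 631 in NI.

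At equal list length the difference was larger. Of the 2522 strongest peaks, 6.26%, 5.99% and 4.04% lay near a gene end in the DEX libraries, against 28.9%, 24.3% and 16.5% in the NI libraries. Peaks inside gene spans were 46.5%, 48.3% and 44.1% of the full lists in DEX and 51.3%, 51.5% and 51.3% in NI (difference -5.05 points, exact permutation p = 0.1). The share of distal peaks was 24.7%, 23.4% and 28.0% in DEX and 23.0%, 21.9% and 25.0% in NI. These overlapped, and the difference of 2.04 points had an exact permutation p of 0.3.

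By chromosome, the share of peaks on chromosome 14 was 2.23%, 2.74% and 2.73% in the DEX libraries, against 0.937%, 1.98% and 0.515% in the NI libraries. The share on the X chromosome was 0.811%, 0.853% and 1.23% in DEX, against 0.257%, 0.400% and 0.0793% in NI. Neither pair of ranges overlapped over the full lists. Among the 2522 strongest peaks the X shares were 0.555%, 0.357% and 0.714% in DEX and 0.357%, 0.159% and 0.0793% in NI, so they touched. In the other direction, the share on chromosome 4 was 6.59%, 6.41% and 6.24% in DEX, against 7.72%, 6.66% and 8.45% in NI. Of 20 chromosomes, the groups were separate over the full lists on 4 with DEX higher (8, 12, 14 and X) and on 3 with DEX lower (2, 4 and 17). Among the 2522 strongest peaks the groups overlapped on chromosomes 2, 4 and 12 and stayed separate on 8, 14 and 17.

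Of the 29623 regions, 3809 were called in 3 of 3 DEX libraries and in no NI library, which is 12.9% of all regions. Only 7 were called in 3 of 3 NI libraries and in no DEX library, or 0.0236%. With 2 libraries as the minimum, 6405 regions (21.6%) were called in DEX and in no NI library, and 241 (0.814%) in NI and in no DEX library. Where a list has no call its signal is unknown rather than 0, so no fold change is given for these regions. The DEX lists are longer than the NI lists. With the 2522 strongest peaks of each library the counts were 1177 and 57, and with a minimum of 8-fold over input and surroundings they were 1967 and 0. Over the full lists, the first count was 3817 without NI replicate 3 and 4508 without DEX replicate 3. The count of 7 became 171 without NI replicate 3, 47 without NI replicate 2, 38 without NI replicate 1 and 14 without DEX replicate 2.

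Regions called in more than 1 NI library were mostly called in DEX too. Of the 2003 regions called in 2 or more NI libraries, 1491 were called in 2 or more DEX libraries, which is 74.4% of those 2003 and 16.1% of the 9261 regions called in 2 or more DEX libraries. Of all 12239 regions called in any NI library, however, 8071 (65.9%) had no call in DEX. A majority of all regions, 18809, were called in a single library, and these were weak. Their median normalized tag count was 9.7 for the 10979 called once in DEX and 7.4 for the 7830 called once in NI.

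The share of DEX regions without an NI call did not move steadily with their strength in DEX. Of regions called in 2 or more DEX libraries with a mean under 10, 77.4% had no NI call. The share was 66.0% for means of 20 to 50 and 82.1% for the 95 regions of 200 or more. The share was thus lowest at middling strength and highest in the strongest bin. These bins were not tested against each other.

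**Figure D2:**
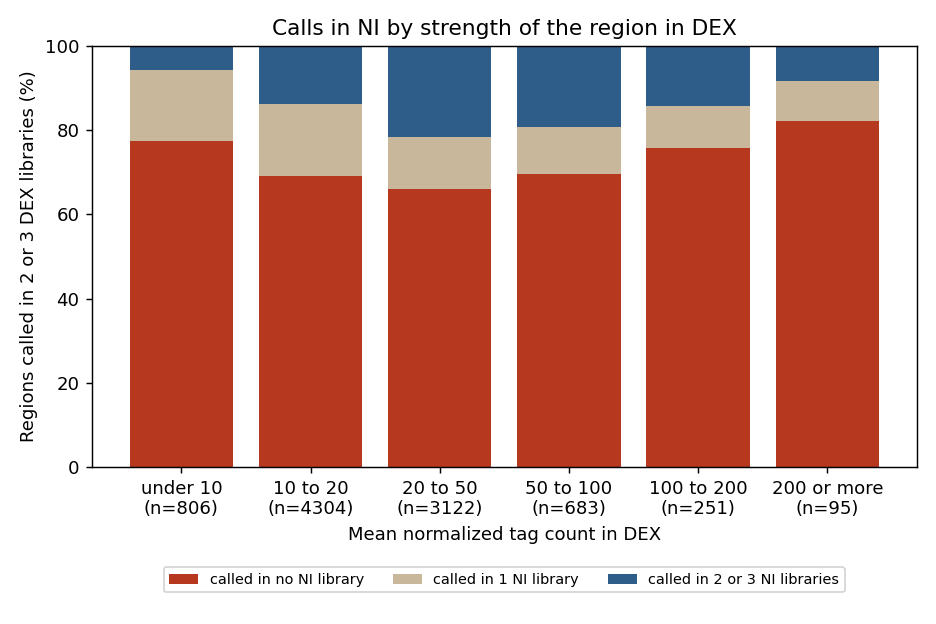
Regions called in 2 or 3 DEX libraries, binned by their mean normalized tag count in DEX (x axis), with the percentage called in no, 1 or at least 2 NI libraries stacked on the y axis. The share with no NI call is 77.4% in the weakest bin, 66.0% at 20 to 50 and 82.1% in the strongest.

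The gained regions, those in 3 of 3 DEX and no NI library, lay away from gene ends. Only 3.78% of them were within 1 kb of a gene end, against 16.1% of the 1491 regions called in 2 or more libraries of each group and 53.9% of the 241 called in 2 or more NI and no DEX libraries. Their median distance to a RefSeq start site was 56.5 kb, 50.3 kb and 2.90 kb in the same order. In DEX the gained regions had a median mean strength of 23.6, against 35.5 for the 177 regions called in all 6 libraries. With 2 DEX libraries as the minimum it was 17.9 where NI had no call. It was 21.8 for regions called in 2 or more libraries of each group. These gaps depended on the library. Gained regions had medians of 16.9, 22.4 and 30.2 in DEX replicates 1, 2 and 3, against 29.7, 40.8 and 31.4 for regions in all 6 libraries. With the minimum of 2, DEX replicate 3 had 22.8 where NI had no call and 22.4 for regions of both groups, the reverse order. Neighbouring gained regions were 90.1 kb apart at the median, and 714 of them (18.7%) had another within 10 kb.

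The strongest gained region lay 3.77 kb before the start of Gm33049, a predicted gene, at chr15:88850588-88850760. It had normalized tag counts of 633.1, 843.8 and 888.7 in DEX replicates 1, 2 and 3, and no call in NI. Next came a region inside Zbtb16 (chr9:48723703-48723882), a transcriptional repressor gene known as a glucocorticoid target, with 524, 612.8 and 1176.1. In the Zbtb16 region DEX replicate 3 stood far above replicates 1 and 2, so the order among the strongest regions depends on the library.

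A region inside Bcl2l1 (chr2:152806183-152806357), which encodes the anti-apoptotic protein Bcl-xL, had 643.5, 828.5 and 788.4 normalized tags in the DEX libraries. A region at chr17:28518092-28518266 had 641, 759.6 and 680.2. Its nearest gene is Armc12, and it lies 32 kb from Fkbp5, which encodes a co-chaperone that lowers the affinity of GR for hormone and is a textbook glucocorticoid target. A region at chr2:31460391-31460567 had 332.7, 437.9 and 927.1. It sits at the end of Hmcn2, a matrix protein gene, and 9.8 kb from Ass1, an enzyme of the urea cycle.

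The other regions among the 10 strongest lay near Grhl2, inside Foxp1, inside Cblb, at a second site between Armc12 and Fkbp5, and inside Nek7, with DEX means of 587, 557, 528, 503 and 501. Grhl2 and Foxp1 encode transcription factors, Cblb a ubiquitin ligase and Nek7 a kinase. The ranks from 11 to 20 had means between 351 and 486 and included a second site in Zbtb16, a second in Bcl2l1, a site inside Hpgd, the enzyme that breaks down prostaglandins, and one 0.3 kb from Zfp36. No NI library held a call at any of the 20.

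Gained regions close to a gene end were fewer, at 144, but some were strong. The Zfp36 region (chr7:28376403-28376592) had 291.5, 354.8 and 529 normalized tags in the DEX libraries. Zfp36 encodes tristetraprolin, which speeds the decay of cytokine mRNAs. At Nfkbia, which encodes an inhibitor of NF-kB, a region 0.65 kb from the start (chr12:55491900-55492095) had 171, 205 and 162. Lbp, the gene of the LPS-binding protein, had 147.7, 189.1 and 339.5 at chr2:158305959-158306144, and Mknk2, a kinase gene, had 217.6, 232.5 and 202.9 at chr10:80664651-80664829. The DEX libraries thus each held strong peaks at an mRNA decay factor and at an NF-kB inhibitor where no NI library had a call.

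The genes with most gained regions within 50 kb of their span were Fkbp5 and Zbtb16 with 9 each, and Chn2 with 8. Ddit4 had 7 although its span is only 2.10 kb, and Tsc22d3 and Plcb1 also had 7. Ddit4 encodes an inhibitor of the growth kinase mTORC1, and Tsc22d3 encodes GILZ, a leucine zipper protein that glucocorticoids induce in many cells. The other genes among the 8 with most were Ccdc192 with 7 and Arhgap26 with 6. Long genes have more room for regions, and Plcb1 spans 689 kb. In all, 41 genes had 5 or more.

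The letters of promoters under gained regions were counted beside those of all promoters. Of 21887 protein-coding genes, 17492 had a start site in the RefSeq table, with 21263 windows. Gained regions touched 49 windows of 45 genes, and 36.7% of these held the GRE core, against 5.97% of all windows. A longer GRE motif, the core with GN before it and NC after it, searched on both strands and so overlapping the core, was in 16.3% of the 49 and in 0.442% of all windows. AP-1 letters (TGANTCA) were in 6.12% of them and in 6.99% of all windows. With 2 DEX libraries as the minimum and still no NI call, 149 windows qualified, of which 15.4% held the core, 7.38% the longer motif and 7.38% the AP-1 letters.

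The other sets of promoters were defined by 2 or more libraries and compare with the 149 windows. The core was in 3.23% of the 186 windows touched by regions called in 2 or more libraries of each group, and in 2.25% of the 89 windows touched by regions called in 2 or more NI and no DEX libraries. NF-kB letters (GGGANTTCC) were in 8 of these 89 windows, or 8.99%, against 1.34% of the 149 DEX windows and 1.84% of all windows. The median number of CG pairs per window was 19 at the 149 DEX windows, 24 at promoters called in both groups, 23 at NI-only promoters and 13 over all windows. At the 49 windows called in all DEX libraries it was 10, so its side of the value for all windows depends on the number of DEX calls asked for. A match of letters is no evidence that a factor was bound.

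**Figure D3:**
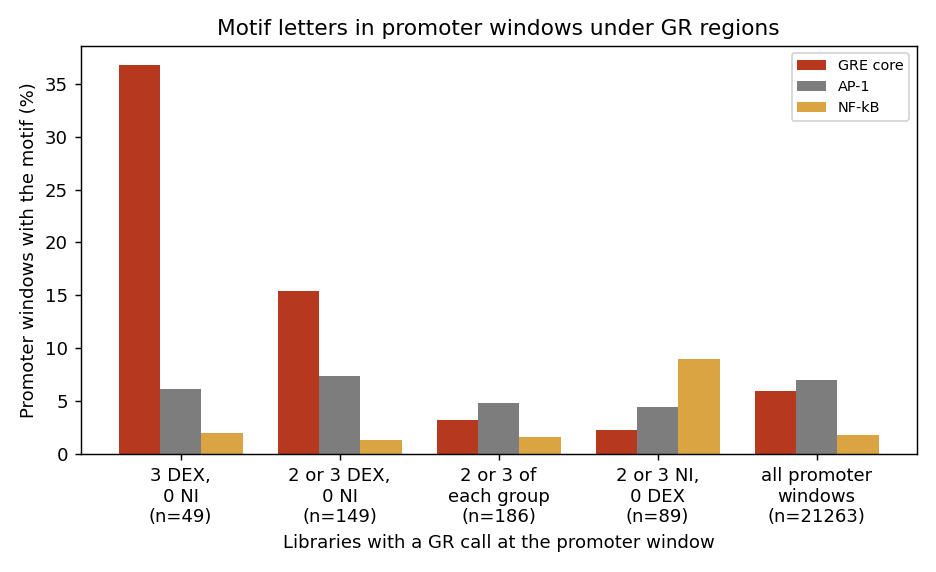
Percentage of 300-base promoter windows that hold the GRE core, AP-1 or NF-kB letters on either strand (y axis), by the libraries that called a GR region at the window (x axis, n windows in brackets). The GRE core is in 36.7% of the windows called in 3 DEX and 0 NI libraries, in 15.4% of those called in 2 or 3 DEX and 0 NI libraries and in 5.97% of all windows.

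The 3 printed promoters with a core inside the region were picked for it, as examples. At Atp6v0a4, which encodes a subunit of the vacuolar proton pump, the region had 69.4, 83.1 and 103.4 normalized tags in DEX replicates 1, 2 and 3. A core begins 37 bases after the start, inside the region, and another begins at position -155, outside it. At Slc10a6, a steroid sulfate transporter gene, the region had 48.6, 67.8 and 83.6, with a core at position -161. At Mt1, the metallothionein gene, it had 22.3, 34.7 and 70.2, with a core at -92. None of the 3 promoters had a call in NI. Of the 6 gained windows whose region had a DEX mean of 50 or more, 3 held the core and each of those also held the longer motif. At Cavin2, Dpyd and Got1 the regions had DEX means of 85.1, 82.0 and 63.7, above the 42.4 at Mt1. Their windows held no core. These windows cover only 58, 68 and 4 bases of the regions, and the rest was not searched.

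The 7 regions called in every NI and no DEX library were weak. They lay at or near Cpne1, Rpl27, Utp18, Nexn, H2aw, Ptp4a1 and Sgo1. The strongest, inside Cpne1 (chr2:156111731-156111923), had 11.9, 21.7 and 11.1 normalized tags in NI replicates 1, 2 and 3. At H2aw, a histone gene, the values were 8.4, 11.6 and 8.2, and at Ptp4a1, a phosphatase gene, 7.4, 11.1 and 8.7. The printed windows of H2aw and Ptp4a1 hold no core, and the Ptp4a1 window has 45 CG pairs. In the libraries with TNF, which this comparison did not use, Utp18, H2aw and Sgo1 had a call in TNF replicate 1, and Utp18 and H2aw also in TNFDEX replicate 1. The other 4 had none there.

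Regions called in all 6 libraries allow a test of strength, and 177 qualified. On log2 normalized tag counts scaled by TMM over these regions, limma with Benjamini-Hochberg adjustment at 0.05 called 23 regions higher in DEX (13% of those tested) and 9 lower (5.08%). Blocking on the replicate number gave 35 higher and 21 lower. A model term for the high or low mitochondrial share gave 38 and 22. Before scaling the median region was 0.76 higher in DEX on the log2 scale, so the changes below are relative to that shift. In unscaled counts 165 of the 177 had the higher mean in DEX, and NI replicate 3 was the lowest of the 6 libraries in 160. The counts moved with single libraries. Calls numbered 13 higher and 1 lower without DEX replicate 2, 11 and 0 without NI replicate 1, and 117 and 27 over 1016 regions without NI replicate 3. Lower calls were 1 without DEX replicate 1 and 0 without DEX replicate 3.

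The largest rise was inside Tox (chr4:6914233-6914418), a gene of an HMG-box DNA-binding protein. Its normalized tag counts were 254.8, 349.7 and 532.5 in DEX replicates 1, 2 and 3, against 8.4, 20.3 and 10.2 in the NI replicates. The groups were far apart, and limma gave a log2 change of 4.06 ± 0.39 (SE, adjusted p = 0.00102). At Arf6, which encodes a small GTPase of membrane traffic, a region 4.3 kb away had 157.6, 190.2 and 243.4 in DEX, against 23.8, 35.3 and 7.3 in NI (limma log2 2.56, adjusted p = 0.00149).

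A region inside Ccdc85a had 76.3, 105.5 and 179.2 normalized tags in DEX, against 11.4, 18.4 and 7.8 in NI (limma log2 2.41). One inside Trim16, a gene of the TRIM family, had 68.9, 85.7 and 126.7 in DEX, against 12.9, 19.8 and 7.3 in NI (limma log2 2.03). The other regions among the 15 largest rises carry the nearest genes Yipf5, Polr3b, Kcne2, Aldoart1 (2 regions), Atp10a, Tmtc3, Angpt1, Pkhd1, Dync1i1 and Snx13, with log2 changes of 1.37 to 2.34. In all 23 the 3 DEX libraries were above the 3 NI libraries, as they were in 64 of the 177 tested (36.2%). The 23 were called on these same values, so this separation is largely built in. Of the 23, 0 lay within 1 kb of a gene end, against 20 of the 177.

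**Figure D4:**
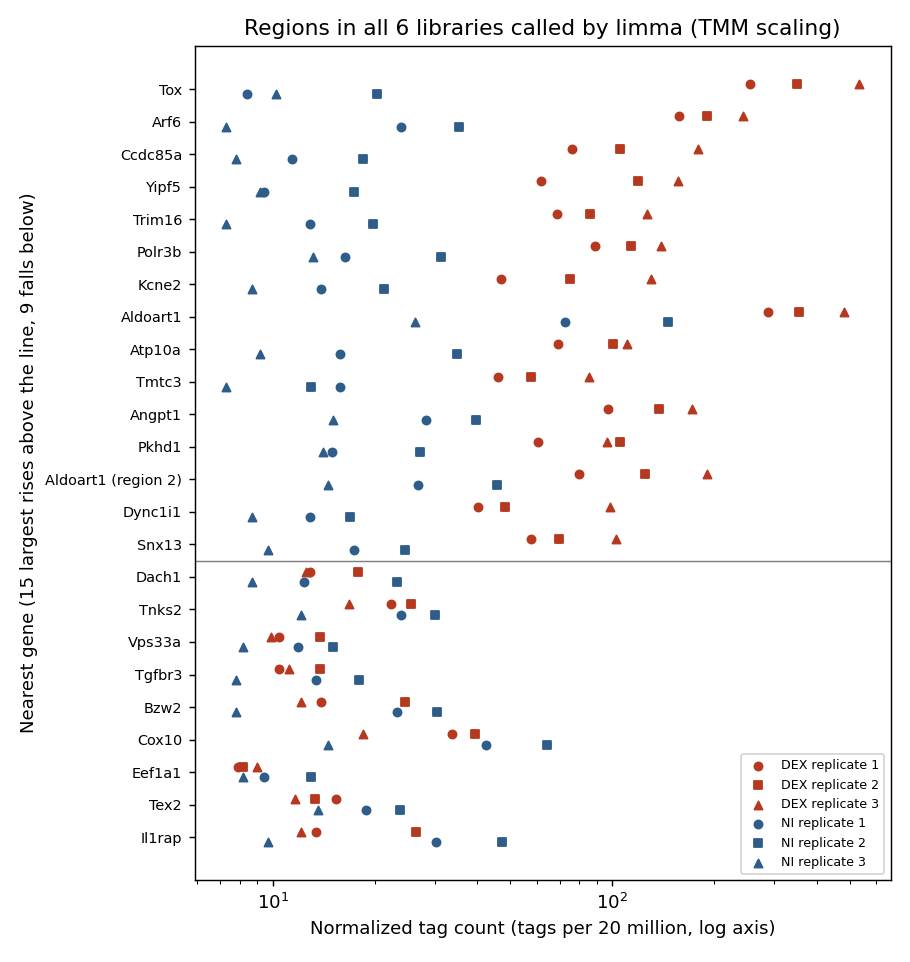
Normalized tag counts (x axis, logarithmic) in each library at the 15 largest rises and the 9 falls that limma called after TMM scaling among regions called in all 6 libraries, labelled by nearest gene, with DEX in red above NI in blue. In the rises the DEX libraries lie right of all NI libraries, while in the 9 falls the groups overlap. Both sets were called on these same libraries.

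The 9 falls were small, and the groups overlapped in unscaled counts. The largest was inside Il1rap, which encodes a co-receptor of interleukin-1, with 13.4, 26.5 and 12.1 normalized tags in DEX, against 30.2, 47.4 and 9.7 in NI (limma log2 -1.41, adjusted p = 0.0163). At Eef1a1, a translation elongation factor gene, a region over the start had 7.9, 8.2 and 9 in DEX, against 9.4, 13 and 8.2 in NI (limma log2 -1.11, adjusted p = 0.0419). The others were near Tex2, Cox10, Bzw2, Tgfbr3, Vps33a, Tnks2 and Dach1, with log2 changes of -1.30 to -0.78. Scaled by library totals none of the 9 was called, their log2 changes lay between -0.56 and 0.0659, and those at Dach1 (0.0659) and Tnks2 (0.0484) changed sign.

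Libraries that the test did not use gave these directions a second reading. Both groups of that reading received TNF, with 3 TNFDEX and 2 TNF libraries. The TNFDEX libraries had the higher mean at all 23 regions called higher, with a median log2 ratio of 1.52 (range 0.39 to 3.92). They had the lower mean at 8 of the 9 called lower, with a median of -0.31. Over all 177 regions 106 were higher and 71 lower, with a median of 0.13. These are means over the libraries with a call. At some regions, Tox among them, only TNF replicate 1 had a call, so the TNF mean is 1 value there.

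Allowing regions called in 2 or more libraries of each group gave 1491, with missing values dropped from the fit, and limma called 143 higher (9.59%) and 15 lower (1.01%). Among them was a region inside Nlk, a kinase gene, with 191.9, 228.4 and 349.8 normalized tags in the DEX libraries, against 8.4 and 15 in NI replicates 1 and 2 (limma log2 4.02, adjusted p = 1.18e-05). A region 210.1 kb from Foxa2, a liver pioneer factor gene, had 197.3, 238.6 and 308.9 in DEX, against 11.4 and 26.6 in NI replicates 1 and 2 (limma log2 3.36). NI replicate 3 had no call at either, so its level there is unknown.

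Before any scaling, 165 of the 177 regions called in all 6 libraries had the higher mean in DEX. So did the 10 strongest regions called in every NI library. A region inside Skp2 (chr15:9114658-9114869), a ubiquitin ligase subunit gene, led them, with 189.9, 237.6 and 207.6 normalized tags in DEX and 106.5, 149.8 and 33.4 in NI. The groups did not overlap there. Near Tle3, a corepressor gene, the values were 91.2, 103.5 and 51.3 in DEX and 90.1, 123.2 and 19.9 in NI, which overlap. Inside Nfatc2, a transcription factor gene, they were 99.6, 184 and 97.4 in DEX and 81.2, 131.4 and 25.2 in NI, which overlap as well.

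The genes near GR regions were counted next, taking a gene as bound in a group when a region called in 2 or more of its libraries lay within 50 kb of its span. In DEX 7984 of 21887 protein-coding genes (36.5%) were bound, against 3242 (14.8%) in NI. Genes bound in DEX and not in NI numbered 5410 (24.7%), and genes bound in NI and not in DEX 668 (3.05%). A further 2574 were bound in both. The NI counts depend on the minimum of 2 libraries, and NI libraries share few regions. With any peak of a single library, 9447, 11204 and 9546 genes had one within 50 kb in DEX replicates 1, 2 and 3, against 7191, 8303 and 3715 in the NI replicates. Nearness does not show which gene a region acts on. Gene lists are described below by their counts beside these shares, without a test.

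Of 28 genes of the glucocorticoid response, 23 were bound in DEX and 9 in NI, and 50% were bound in DEX alone, against 24.7% of all genes. The strongest DEX region of a bound gene had a median of 77.2 normalized tags in this list and 20.95 over all bound genes. Per1, a clock repressor gene, had 297.5, 397.7 and 335.6 in the DEX libraries at its strongest region, which no NI library held. By other regions Per1 was bound in NI as well. At Lpin1, a lipid phosphatase gene, the values were 249.4, 274.3 and 515.7, and at Cdkn1a, a cell cycle inhibitor gene, 270.7, 320.7 and 424.8. Neither region had a call in NI, although all 3 NI libraries had another peak within 50 kb of Cdkn1a. The 5 members bound in neither group were Cdkn1c, Anxa1, Lcn2, Pik3r1 and Rgcc, of which Anxa1 and Rgcc had no peak within 50 kb in any of the 6 libraries.

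Metabolic genes were described in 2 lists. Of 29 genes of glucose and amino acid metabolism, 21 were bound in DEX and 6 in NI, and 55.2% in DEX alone, against 24.7% of all genes. Ass1, given above, had the strongest region. Tat, which encodes the tyrosine-degrading enzyme tyrosine aminotransferase, had 54.5, 61.2 and 115.9 in the DEX libraries, and Igfbp1, an insulin-like growth factor binding protein gene, had 92.7, 112.2 and 122.8. Neither strongest region had a call in NI, though Igfbp1 was bound in NI by another region. Pck1 and G6pc, the classical gluconeogenic genes, were bound in neither group, although each had a peak within 50 kb in 1 DEX library. Fbp1 had none in any library. Pcx and Ppargc1a of the same list were bound in DEX alone. Their strongest regions had 31.7, 38.7 and 70.2, and 8.9, 15.3 and 35.8, in the DEX libraries.

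Of 24 lipid genes, 17 were bound in DEX and 2 in NI. That is 70.8% and 8.33%, beside 36.5% and 14.8% of all genes. In DEX alone 66.7% were bound, the highest share of the 16 lists, beside 24.7% of all genes. Counting any peak of a single library, 17, 20 and 20 of the 24 had one in the DEX libraries, against 9, 12 and 4 in the NI libraries. Over all 21887 genes these were 9447, 11204 and 9546 in DEX, against 7191, 8303 and 3715 in NI. Pparg, a fat-cell nuclear receptor gene, had 66.9, 81.1 and 139.6 in the DEX libraries, and Ppara, the receptor gene of fatty acid oxidation, had 52.5, 76.5 and 128.4. At Cyp7a1, the rate-limiting enzyme of bile acid synthesis, the values were 23.3, 28.6 and 66.3. None had a call in NI at these regions. Cpt1a was the one member bound in NI and not in DEX, although 2 DEX libraries had a peak within 50 kb of it. Srebf1, Fasn and Acaca were bound in neither, while Srebf2 and Scd1 were bound in DEX alone.

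Hepatocyte identity genes were bound in DEX in 19 of 22 cases and in NI in 6, and 59.1% in DEX alone. Hnf4a, a master regulator of hepatocytes, had 208.7, 222.8 and 475.2 in the DEX libraries at a region 23.3 kb away. Prox1, another liver transcription factor gene, had 96.2, 106 and 160.7, and Alb, the albumin gene, had 35.7, 31.1 and 125.8. No NI library had a call at these regions, and in all 3 DEX replicate 3 was the highest. Alb was bound in NI by another region. Markers of other cells were also bound in DEX, with 7 of 12 macrophage, 5 of 11 stromal and endothelial and 7 of 14 neuronal markers. In NI these were 1, 2 and 2. The shares were 58.3%, 45.5% and 50% in DEX, beside 36.5% of all genes. In NI they were 8.33%, 18.2% and 14.3%, beside 14.8% of all genes. Binding near a marker is no measure of its RNA.

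Inflammatory lists stood nearer to the shares of all genes. Of 24 acute phase genes, 9 were bound in DEX and 1 in NI. That is 37.5% and 4.17%, beside 36.5% and 14.8% of all genes. In DEX alone 33.3% were bound, beside 24.7% of all genes. Fga, Fgb and Fgg were all counted from the same region, with 13.4, 12.7 and 18.5 in the DEX libraries and 11.1 in NI replicate 2. Counting any peak of a single library, 9, 13 and 12 had one in DEX replicates 1, 2 and 3, against 2, 11 and 0 in the NI replicates, so NI replicate 2 lay within the DEX range. Lbp, described above, was the strongest, and Agt, the angiotensinogen gene, had 35.7, 41.3 and 53.4 in the DEX libraries with no call in NI. The serum amyloid genes Saa1 to Saa4 were among the 15 members bound in neither group, although each had a peak within 50 kb in 2 DEX libraries and in 1 NI library. Crp and Orm1 to Orm3 had no peak in any library. Of 32 NF-kB pathway genes, 15 were bound in DEX and 4 in NI, or 46.9% and 12.5%, and 37.5% in DEX alone. After Nfkbia, the strongest gained regions lay near Nfkbie, another inhibitor of NF-kB, with 37.7, 35.7 and 49.5 in the DEX libraries, and near Tnfrsf1a, a TNF receptor gene, with 20.8, 36.2 and 30.2. Nfkbie was also bound in NI, by other regions. The chemokine genes Cxcl1, Cxcl2, Cxcl10, Ccl2 and Ccl5 were bound in neither group, and Cxcl10, Ccl5 and Il6 had no peak within 50 kb in any library.

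Clock and immediate early genes held regions in NI as well. Of 19 circadian genes, 14 were bound in DEX and 7 in NI. That is 73.7% and 36.8%, beside 36.5% and 14.8% of all genes. Per2 had 132.4, 149.9 and 145.2 in the DEX libraries and Cry2 116, 124.4 and 145.6, both clock repressor genes and both with no call in NI at that region. Per2 was bound in NI by another region. Of 20 AP-1 and immediate early genes, 15 were bound in DEX and 10 in NI. That is 75% and 50%, both above the shares of all genes. In DEX alone 25% were bound, near the 24.7% of all genes. Near Myc, a growth regulator gene, a region had 155.2, 235 and 282.6 in DEX and no call in NI. Within Egr1, an early growth response gene, the values were 30.2 and 35.7 in DEX replicates 1 and 2 and 35.2 and 43 in NI replicates 1 and 2. The replicates 3 of both groups had no call there.

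Genes of ribosomes and translation were bound equally often in both groups, 17 of 25 in DEX and 17 of 25 in NI. That is 68% in each, beside 36.5% of all genes in DEX and 14.8% in NI. In DEX alone 20% were bound, beside 24.7% of all genes. By the same rule 5 were bound in NI and not in DEX, namely Rpl4, Rpl8, Rpl13, Rps2 and Eef2. Counting any peak within 50 kb, however, Rpl4 had one in 3 DEX libraries and Rpl8 and Eef2 each in 2. Rpl13 and Rps2 had none in DEX. At Rpl32 all 6 libraries had a call, with 10.9, 19.9 and 16.8 in DEX and 13.9, 19.3 and 16 in NI, which overlap. Among the 16 lists it had the smallest difference between DEX and NI.

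Among the remaining lists, 15 of 22 growth factor genes were bound in DEX and 8 in NI. The counts were 17 and 5 of 22 adhesion and cytoskeleton genes, and 13 and 6 of 21 apoptosis genes. In this order the shares were 68.2%, 77.3% and 61.9% in DEX, beside 36.5% of all genes. In NI they were 36.4%, 22.7% and 28.6%, beside 14.8% of all genes. Besides Bcl2l1, Pmaip1, a pro-apoptotic gene, had 83.8, 98.4 and 207.2 in the DEX libraries and no call in NI at that region. Tjp1, a tight junction gene, had 107.6, 109.6 and 87 in DEX and no call in NI at that region. Bcl2l1 and Tjp1 were also bound in NI, by other regions. Of 20 genes of GR, its cofactors and its chaperones, 10 were bound in DEX and 7 in NI, or 50% and 35%. In DEX alone 20% were bound, beside 24.7% of all genes. The GR gene itself, Nr3c1, had a region 35.9 kb away with 40.7, 55.6 and 67.2 in DEX and no call in NI. That region lies inside Arhgap26, and Nr3c1 was bound in NI by another region.

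**Figure D5:**
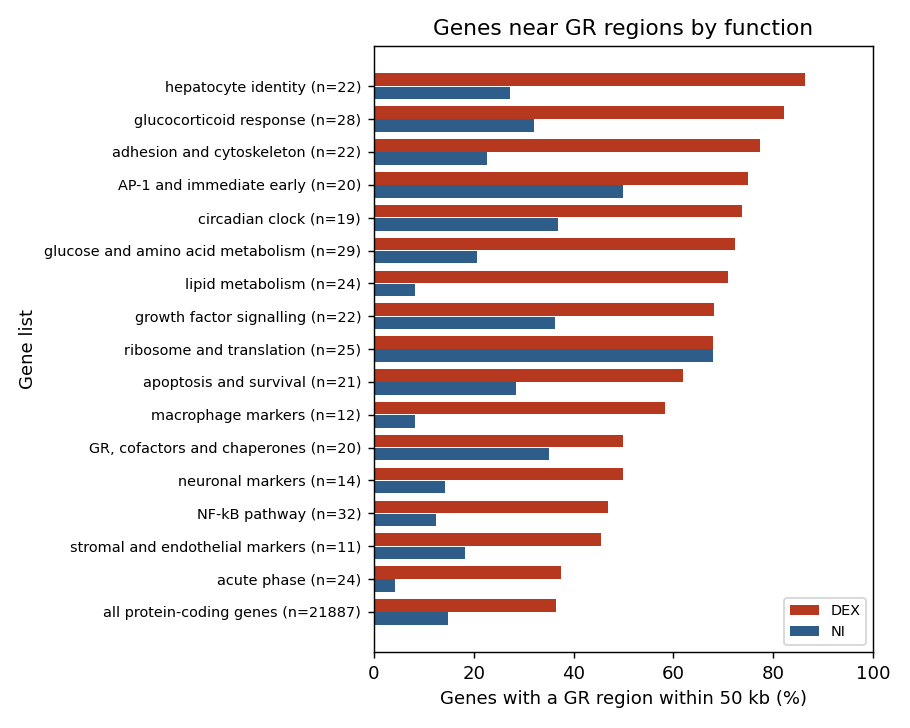
Percentage of the genes of each list with a GR region within 50 kb called in 2 or 3 libraries of a group (x axis), DEX in red above NI in blue, with all protein-coding genes as the last pair. All genes stand at 36.5% in DEX and 14.8% in NI, and the ribosome and translation list at 68% in both.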

How the data were processed

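Genomic DNA recovered with a GR antibody was sequenced in 3 DEX and 3 NI libraries. The submitters' processing notes name build mm10 and the tools HOMER 4.6, Bowtie 1.0.0 and CASAVA 1.8. Read trimming and removal of duplicates are steps not given in the sources used here. HOMER called peaks in each library on its own against 1 input library, per the file headers, at a false discovery rate of 0.001, with 4 times the tags of the input and of the surrounding 10000 bp and a Poisson p-value of 0.0001. The deposited signal is the normalized tag count, tags per 20000000. The authors' lists also give the focus ratio as a fraction, a score, p-values and the fold ratio over the input and over the surroundings, and these served only to describe or filter peaks. The normalized tag counts were not treated as read counts, because each window is centred on a library's own peak. The input sample was not analysed here.

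Peaks sharing 1 bp were merged, mitochondrial peaks were left out, and the largest peak of a library stood for a region. Single values were tested by exact permutation over 20 arrangements. Strength was tested on the log2 scale in R 4.3.3 by limma 3.58.1, with TMM factors and no pseudocount, and the fit was tested on simulated data. The main tests are unpaired. Same-numbered libraries of the groups deviated together over 177 regions (correlations of 0.40, 0.45 and 0.56, against -0.52 to 0.35 for different numbers), so limma counts with the replicate number as a block stand beside the main ones. The design text calls the replicates biological. Figures were drawn with matplotlib 3.10.9 and other steps used Python 3.11.15, with scipy 1.17.1, pandas 2.3.3 and numpy 2.4.6.

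Genes came from RefSeq for GRCm38.p6, and each region is named after the closest protein-coding gene, whether or not it acts on that gene. The gene table has no exons, so exons, introns and UTRs were not separated. The 16 gene lists (339 genes, all matched), the comparison and its regions were chosen with earlier results of these data known. Regions were named by rank: the 20 strongest gained, all lost, the 15 largest rises and up to 10 falls by limma, the 10 strongest in NI, the 8 strongest gained near a gene end, and up to 4 strongly gained members of each list. The printed promoters, the regions at Nlk and Foxa2, and the members and peaks named outside these ranks were chosen after their values were seen. The weakest peaks hold few tags, so a missing call is poor evidence that GR was absent.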

Additional observations from a re-analysis of the deposited data

How the results depend on the processing

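Directions held throughout for peak number, tag share, median strength, focus ratio, width and the shares of peaks near, inside and far from genes, with no call to lose because 3 against 3 libraries cannot pass 0.05. Leaving out 1 library at a time, the log2 difference was 1.02 to 1.71 for peak number, 2.05 to 3.08 for tag share and 0.67 to 0.85 for median strength. The differences were 0.0272 to 0.0377 for the focus ratio and 15.7 to 24.3 bp for width. They were -11.4 to -7.16 points near gene ends, -6.04 to -3.96 inside genes and 0.72 to 3.01 for distal peaks. Paired permutation with the replicate block gave p = 0.25 for each, the exact minimum for 3 pairs.

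Counts moved more. Regions in every DEX and no NI library numbered 1967 with an 8-fold minimum over input and surroundings, 1177 with equal list lengths and 3817 to 5188 with 1 library left out. Regions in every NI and no DEX library numbered 1 with a tag minimum of 10, 0 with the 8-fold minimum, 57 with equal list lengths and 9 to 171 with 1 library left out. Genes bound in DEX alone numbered 2948 within 10 kb and 3832 to 7559 with 1 library left out.

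For limma, higher calls numbered 35 with the replicate block, 38 with a term for high mitochondrial share, 143 over regions in 2 or more libraries of each group and 11 to 117 with 1 library left out. Lower calls numbered 21 with the block, 22 with the mitochondrial term, 0 with library totals, 5 on log2(value + 5), 4 with a mean of at least 20, 15 over the wider set of regions and 0 to 27 with 1 library left out. With library totals Dach1 (0.0659) and Tnks2 (0.0484) changed sign. The 23 higher and 9 lower regions were all called under the block too. The cause of these moves was not tested, beyond the change in the regions tested. The mitochondrial term, the restriction to replicates 1 and 2 and the use of start sites were added after the data were seen. With start sites in place of gene ends, the near-gene difference was -8.35 points. No paired fit was made for the counts of regions and genes, which come from no test.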
